A study of Mus musculus with 48 samples.

Results

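The hippocampus of sons born to dams exposed to lead and manganese together (Pb+Mn) was compared with that of sons of unexposed dams. The members are the 6 male Pb+Mn and the 6 male control libraries, chosen by their labels and by no measured value, 12 of the 48 libraries in the series. All animals were CD-1 mice, an outbred stock, and were sampled at 2 months of age. The dams of the Pb+Mn sons drank 100 ppm lead and 2 g/L manganese, and those of the controls had neither metal. Exposure ran for 8 weeks, beginning 2 weeks ahead of mating and ending at weaning on postnatal day 21, all by way of the dams' water. The other groups used for context are sons given lead alone or manganese alone on the same schedule, and control and Pb+Mn daughters, with 6 animals each. The labels do not say which animals were littermates, so litters could not be modelled and every p-value rests on differences between animals. The hippocampus was taken whole, and in such bulk RNA fewer cells of a type and less RNA per cell cannot be told apart.

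Lead and manganese reach cells by routes made for other metals. Lead displaces zinc in delta-aminolevulinate dehydratase, the heme synthesis enzyme encoded by Alad, and blocks the NMDA type of glutamate receptor, on which hippocampal plasticity depends. Manganese enters cells through the importers encoded by Slc39a14 and Slc39a8 and leaves through the exporter encoded by Slc30a10, while metallothioneins (Mt1, Mt2) bind several heavy metals.

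Total counts ranged from 14.7 to 24.3 M (mega) per library in Pb+Mn sons and from 6.27 to 27.6 M in controls (18.8 ± 4.30 against 16.3 ± 7.27 M, SD, n = 6 each, two-sided exact permutation test, p = 0.489). The slope on transcript length of a library's expression, centred by gene over the 48 libraries, was 0.046 ± 0.046 against 0.001 ± 0.077 (SD, n = 6 each, exact permutation test, p = 0.258). This slope is at most an indirect measure of RNA quality. Controls were the more variable group: the SD of log2 CPM (counts per M of a library's scaled total) between libraries was larger in controls for 72.8% of 14600 genes. The defining markers of hippocampus were present throughout: the dentate gene Prox1 was at 74.3 CPM or more in all 12 libraries, the CA1 gene Wfs1 at 65.9 or more, the CA3 gene Bok at 70.2 or more and the CA2 gene Rgs14 at 76.9 or more. Male control 4 held 24.4 CPM of Xist, the X-inactivation RNA of females, where the other 11 libraries had at most 0.137 CPM, and its Ddx3y, a Y-linked gene, was at 30.8 CPM within the 30.5 to 40.6 CPM of the controls. Markers of neighbouring tissue differed between libraries. Markers of thalamus and habenula summed to 864, 901 and 1569 CPM in controls 3, 4 and 5, to between 213 and 439 CPM in controls 1, 2 and 6, and to between 331 and 532 CPM in the Pb+Mn sons. Markers of choroid plexus, the tissue that secretes cerebrospinal fluid, summed to between 206 and 7763 CPM in controls and between 281 and 6708 CPM in Pb+Mn sons.

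No gene passed the test between Pb+Mn and control sons. Of the 16360 genes tested, 0 (0%) had an adjusted p under 0.05 in the quasi-likelihood F test of edgeR, with a smallest adjusted p of 1. An unadjusted p under 0.05 was reached by 143 genes with higher values (0.874%) and 224 with lower ones (1.37%), and 48.4% of all genes had a positive log2 fold change, with a median of -0.01. Both p-value shares together lie under the share that a threshold of 0.05 gives on average when no gene differs. DESeq2 and limma voom also passed 0 genes, with 398 and 442 at an unadjusted p under 0.05. All genes named below therefore failed the adjusted threshold, and their fold changes are given as estimates with a standard error (SE). Over all genes, fold changes had a median SE of 0.16. Fitted without control 5, 194 genes had an unadjusted p under 0.05, and fitted without control 3, 567 did.

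**Figure D1:**
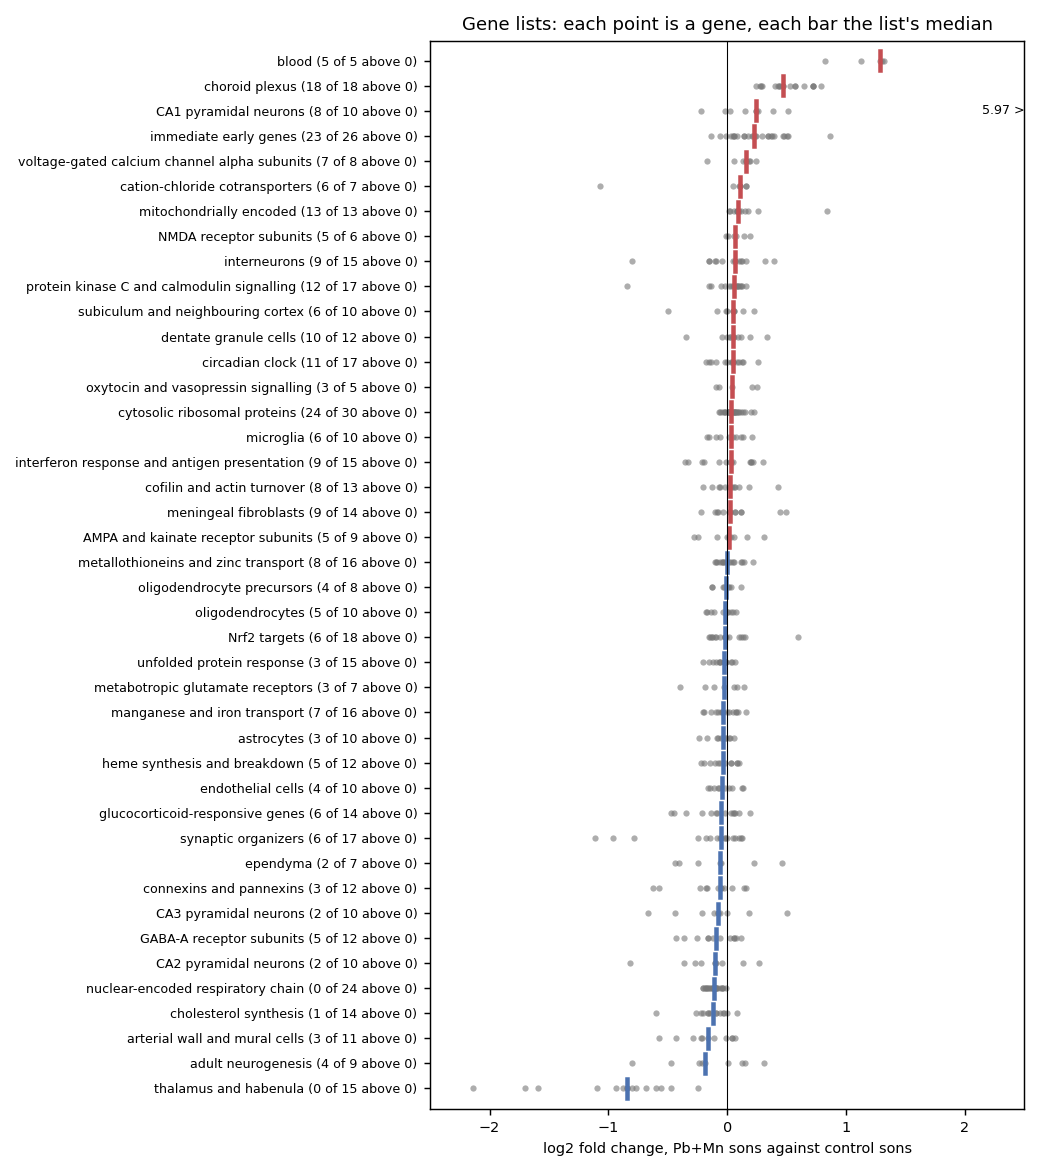
Log2 fold change of Pb+Mn sons against control sons (x axis) for the tested genes of 42 gene lists (rows), each point a gene and each bar the list's median, with the count of genes above 0 in parentheses. The blood list lies farthest to the right at a median of 1.28 and the thalamus and habenula list farthest to the left at -0.84. Lefty1, at 5.97 among the CA1 genes, is beyond the axis.

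Genes of red blood cells had the highest median log2 fold change of the 42 lists. Alas2, which encodes the erythroid form of the enzyme that starts heme synthesis, was at 1.81, 3.82 and 4.95 CPM (lowest, median and highest) in controls and at 4.27, 7.70 and 17.8 CPM in Pb+Mn sons. Its values lay above the highest control in 5 of 6 Pb+Mn sons, with Pb+Mn 1 far above the rest, for a log2 fold change of 1.30 ± 0.37 (SE). Hbb-bt, a beta-globin gene, was at 5.04, 7.96 and 10.1 CPM in controls and at 10.2, 16.4 and 35.4 CPM in Pb+Mn sons. The groups did not overlap for this gene, and its log2 fold change was 1.32 ± 0.44. Over all genes, 10 (0.0611%) lay wholly above the controls in this way and 19 (0.116%) wholly below. When no gene differs, a gene separates in a given direction in 1 of the 924 arrangements of the libraries. Over 16360 genes, counts of this order are then met, and these counts were not tested.

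The other adult globin genes were also highest in Pb+Mn 1, then in Pb+Mn 6. Hba-a1, an alpha-globin gene, ranged from 36.6 to 72.9 CPM in controls (median 47.9) and from 59.4 to 286 CPM in Pb+Mn sons (median 90.1), with a log2 fold change of 1.28 ± 0.45 that was 0.84 without Pb+Mn 1. Hbb-bs, the second beta-globin gene, ranged from 88.2 to 156 CPM (median 112) and from 155 to 491 CPM (median 194), with 1.12 ± 0.43. For both genes 5 of 6 Pb+Mn sons exceeded every control, and the remaining one, Pb+Mn 2, lay within the control range. Hba-a2, at 0 to 0.423 CPM in the 12 libraries, is nearly identical to Hba-a1 and Hbb-bs to Hbb-bt, so how reads were shared between the copies is uncertain. The list as a whole had 5 of 5 tested members above 0 and a median of 1.28. The neutrophil genes on it stood apart from the globins: S100a9 was at 0.1001 to 0.679 CPM in controls and 0.216 to 3.14 CPM in Pb+Mn sons (0.82 ± 0.75), and S100a8, at up to 2.13 CPM, was under the count filter. The list's median was 0.91 without Pb+Mn 1 and 1.35 without controls 3, 4 and 5. Endothelial markers, which mark the vessel wall, had 4 of 10 members above 0 and a median of -0.04. Choroid plexus markers summed to 7763 and 3699 CPM in controls 3 and 4, the highest controls for the blood list (244 and 193 CPM). They summed to 6333 and 3358 CPM in Pb+Mn 1 and 6, the highest for blood (831 and 482 CPM). In Pb+Mn 4 they summed to 6708 CPM, where the blood list was at 286 CPM. Whether this tissue bears on the blood list was not tested.

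**Figure D2:**
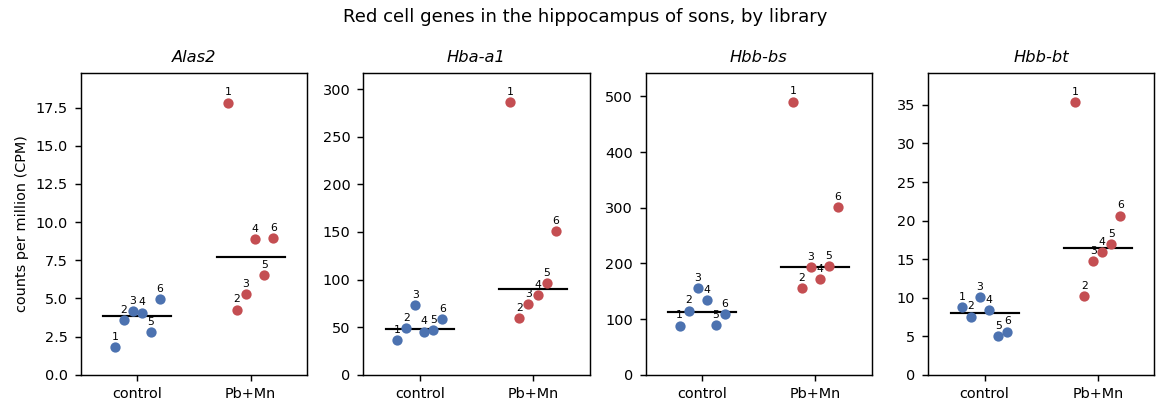
CPM (y axis) of 4 red cell genes in each control and Pb+Mn son, numbered by library, with a line at each group's median. Pb+Mn 1 is the highest library for every gene shown and Pb+Mn 6 the next, and the groups are fully apart for Hbb-bt, whose lowest Pb+Mn value is 10.2 and highest control value 10.1.

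Start regions of these 4 genes are shown because their RNAs stood together in the same libraries. Each line gives 250 bases before to 50 after the annotated start, 5′ to 3′ on the gene's strand, from RefSeq on build GRCm38.p6, and all 4 genes had an entry. Capitals mark 3 motifs known from erythroid promoters, searched on both strands: the AGATAA form of the GATA-factor motif (AGATAA or its complement TTATCT), the CACCC box (CACCC or GGGTG) and the CCAAT box (CCAAT or ATTGG). Other forms of the GATA-factor motif, such as the tgataa in the Hba-a1 window, were not searched and stay in lower case.
Alas2: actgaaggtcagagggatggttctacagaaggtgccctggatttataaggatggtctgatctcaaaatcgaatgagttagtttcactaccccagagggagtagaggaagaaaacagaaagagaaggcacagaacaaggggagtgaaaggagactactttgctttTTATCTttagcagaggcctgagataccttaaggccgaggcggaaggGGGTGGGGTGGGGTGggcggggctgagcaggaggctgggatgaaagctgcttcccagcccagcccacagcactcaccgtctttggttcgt
Hba-a1: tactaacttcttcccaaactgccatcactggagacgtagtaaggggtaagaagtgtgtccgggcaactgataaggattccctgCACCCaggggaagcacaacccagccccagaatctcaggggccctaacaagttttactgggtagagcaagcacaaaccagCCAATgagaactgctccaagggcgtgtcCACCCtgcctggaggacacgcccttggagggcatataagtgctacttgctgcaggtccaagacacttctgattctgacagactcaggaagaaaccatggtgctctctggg
Hbb-bs: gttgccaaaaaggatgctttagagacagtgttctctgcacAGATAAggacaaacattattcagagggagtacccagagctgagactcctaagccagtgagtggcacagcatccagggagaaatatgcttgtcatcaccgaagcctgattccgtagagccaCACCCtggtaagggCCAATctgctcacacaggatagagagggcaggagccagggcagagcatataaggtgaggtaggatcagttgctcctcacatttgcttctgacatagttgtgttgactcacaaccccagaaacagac
Hbb-bt: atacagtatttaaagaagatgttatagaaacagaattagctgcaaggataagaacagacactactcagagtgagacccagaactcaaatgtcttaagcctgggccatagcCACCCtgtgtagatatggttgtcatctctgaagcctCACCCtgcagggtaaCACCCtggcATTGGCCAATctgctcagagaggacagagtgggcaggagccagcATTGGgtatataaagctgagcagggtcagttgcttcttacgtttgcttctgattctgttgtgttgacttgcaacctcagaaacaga
The windows lie at chrX:150547167-150547466 (plus strand) for Alas2, chr11:32283422-32283721 (plus) for Hba-a1, chr7:103827879-103828178 (minus) for Hbb-bs and chr7:103813874-103814173 (minus) for Hbb-bt. The Alas2 window held 1 GATA motif, at 86 bases before the start, and 3 CACCC boxes, and the 3 boxes lie in a row without a gap between 40 and 30 bases before the start. Hba-a1 had 2 CACCC boxes and 1 CCAAT box at 88 bases before the start. Hbb-bs had 1 match of each motif, with the CCAAT box at 76 bases, and Hbb-bt had 3 CACCC boxes and 3 CCAAT matches, of which those at 80 and 75 bases adjoin on opposite strands. Over 32851 promoter windows of this length, 11.2% held this form of the GATA motif, 57.5% a CACCC box and 37.4% a CCAAT box. The Hbb-bs and Hbb-bt windows aligned with 216 identical bases and 78 mismatches, an identity of 73.5% outside 12 gap bases. Matches of such short motifs describe the sequence and show no binding.

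Globin values of the other exposed sons are set beside these, since all exposures share the same control sons. The 4 globin genes (Hba-a1, Hba-a2, Hbb-bs and Hbb-bt) summed to 134, 172 and 239 CPM (lowest, median, highest) in control sons and to 225, 295 and 813 CPM in Pb+Mn sons. They summed to 230, 361 and 703 CPM in sons given lead alone and to 131, 156 and 318 CPM in sons given manganese alone. Hbb-bt had a log2 fold change of 1.37 ± 0.44 with lead and 0.26 ± 0.45 with manganese. Alas2 had 0.57 ± 0.37 with lead and -0.24 ± 0.38 with manganese. The test of whether the combination departed from the sum of both metals gave 0.98 ± 0.52 for Alas2 and -0.31 ± 0.62 for Hbb-bt, and neither passed. In daughters the globin sum ranged from 93.1 to 453 CPM in controls (median 125) and from 103 to 422 CPM with Pb+Mn (median 273) and the groups overlapped. Hbb-bt had a log2 fold change of 0.54 ± 0.44 and Alas2 of 0.51 ± 0.37 in daughters, and the difference between sons and daughters was 0.78 ± 0.62 and 0.79 ± 0.52, neither of which passed.

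Other heme genes had values on both sides of 0. Of 12 genes of heme synthesis and breakdown, 5 were above 0, with a median of -0.04 and 0 at an unadjusted p under 0.05. Alad, the lead-sensitive enzyme, was at 18.9, 28.04 and 33.9 CPM in controls and at 22.5, 29.6 and 32.9 CPM in Pb+Mn sons. The ranges coincided, and the log2 fold change was 0.09 with a 95% interval of -0.27 to 0.44. Cpox, a mitochondrial enzyme late in the pathway and the list's gene of smallest p, had 0.10 ± 0.09.

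Genes that transport and bind metals had intervals on both sides of 0. Slc30a10, the manganese exporter, was at 12.4, 16.1 and 19.7 CPM in controls and at 12.7, 16.0 and 20.1 CPM in Pb+Mn sons, with a 95% interval of -0.29 to 0.30 around a log2 fold change of 0.00. The importers Slc39a14 and Slc39a8 had intervals of -0.31 to 0.15 and -0.35 to 0.26. Mt1 ranged from 182 to 270 CPM in controls and from 125 to 321 CPM in Pb+Mn sons, and its interval was -0.38 to 0.50. Mt2 had an interval of -0.46 to 0.70. The wider manganese and iron transport list had 7 of 16 genes above 0 (median -0.03, Heph, a copper-dependent iron oxidase, at -0.21 ± 0.16). Metallothioneins and zinc transporters had 8 of 16 above 0 (median 0.00), with the zinc transporter Slc30a9 at -0.10 ± 0.06.

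Stress, hormone and immune pathways held no gene at an unadjusted p under 0.05. Targets of Nrf2, the regulator of antioxidant genes, had 6 of 18 genes above 0 and a median of -0.02, with Osgin1, an oxidative stress response gene, at 0.60 ± 0.40. Genes of the unfolded protein response had 3 of 15 above 0 (median -0.03), with the endoplasmic reticulum chaperone Dnajb9 at -0.12 ± 0.08. Glucocorticoid-responsive genes had 6 of 14 above 0 (median -0.05). Their gene of smallest p, Tsc22d3, was at 66.3, 141 and 175 CPM in controls and at 55.9, 98.2 and 113 CPM in Pb+Mn sons, with -0.48 ± 0.24. Clock genes had 11 of 17 above 0 (median 0.04, Npas2, a partner of the clock factor Bmal1, at 0.26 ± 0.14), and interferon and antigen presentation genes 9 of 15 (median 0.03, Oasl2 at 0.30 ± 0.31).

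Immediate early genes, which neurons switch on within minutes of activity, were mostly on the higher side: 23 of 26 had a positive log2 fold change, with a median of 0.23. Egr2, a zinc finger transcription factor, was at 2.64, 4.81 and 8.33 CPM in controls and at 5.67, 7.03 and 16.4 CPM in Pb+Mn sons. All 6 Pb+Mn sons were above the control mean and 2 above the highest control, and the log2 fold change was 0.87 ± 0.36. Egr4, of the same family, was at 20.7, 35.0 and 53.7 CPM and at 43.6, 48.2 and 67.0 CPM, again with 6 of 6 above the control mean (0.51 ± 0.24). Junb, a partner of Fos in transcription factor pairs, had 0.47 ± 0.23, or 0.29 without Pb+Mn 1. Those 3 were the list's genes at an unadjusted p under 0.05, beside 0.874% of all genes that were higher at this threshold. Fos, the most used marker of activity, ranged from 14.0 to 34.9 CPM in controls and from 19.0 to 46.2 CPM in Pb+Mn sons (0.30 ± 0.29, or 0.13 without Pb+Mn 1). The list's median was 0.15 without control 5. In daughters given Pb+Mn, Egr2 had -0.03 ± 0.36 and Egr4 0.04 ± 0.24, and the difference between the sexes was 0.90 ± 0.51 for Egr2, which did not pass.

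Among synaptic organizers, which align the release site of one neuron with receptors of the next, the 3 cerebellin genes had the lowest values of the 17 genes on the list, and the other 14 lay between -0.24 and 0.12. Cbln2 was at 6.43, 12.3 and 21.7 CPM in controls and at 4.80, 6.48 and 8.27 CPM in Pb+Mn sons, a log2 fold change of -0.96 ± 0.30. Every Pb+Mn son was below the control mean, but the controls lay at 2 levels: controls 3, 4 and 5 had 18.7, 16.8 and 21.7 CPM, and controls 1, 2 and 6 had 6.43, 7.84 and 6.60 CPM, within the Pb+Mn range. Cbln4 had -0.79 ± 0.28 and Cbln1 -1.12 ± 0.54, and for both the 3 highest libraries of all 12 were the same 3 controls. The list had 6 of 17 genes above 0 and a median of -0.05.

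Those 3 controls are the ones with the most thalamus and habenula RNA. The thalamus and habenula list had 0 of 15 genes above 0 and a median of -0.84, with 0 at an unadjusted p under 0.05. Its members varied widely among controls: Slc17a6, the vesicular glutamate transporter of thalamic neurons, ranged from 6.60 to 145 CPM in controls and from 12.2 to 33.0 CPM in Pb+Mn sons (-1.10 ± 0.71). Prkcd, a protein kinase C gene abundant in thalamus, ranged from 29.2 to 357 CPM and from 49.9 to 91.2 CPM (-0.84 ± 0.57), and Gbx2, a thalamic transcription factor, had -2.14 ± 1.13. Pou4f1, the defining habenula marker, was at 0 in at least 1 library of each group. Against controls 1, 2 and 6 alone, Cbln2 was at -0.05, Cbln4 at 0.08 and Cbln1 at 0.66, and the list's own median was 0.79. The controls left out are the highest libraries for the cerebellin genes and for the list, so the choice of controls sets all of these values. Without control 5 alone, Cbln4 was at -0.31, Cbln1 at -0.55, Slc17a6 at -0.56, Prkcd at -0.24 and the list's median at -0.36. With each library's level of the list as a covariate, Cbln2 was at -0.70, Cbln4 at -0.52 and Cbln1 at -0.39.

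**Figure D3:**
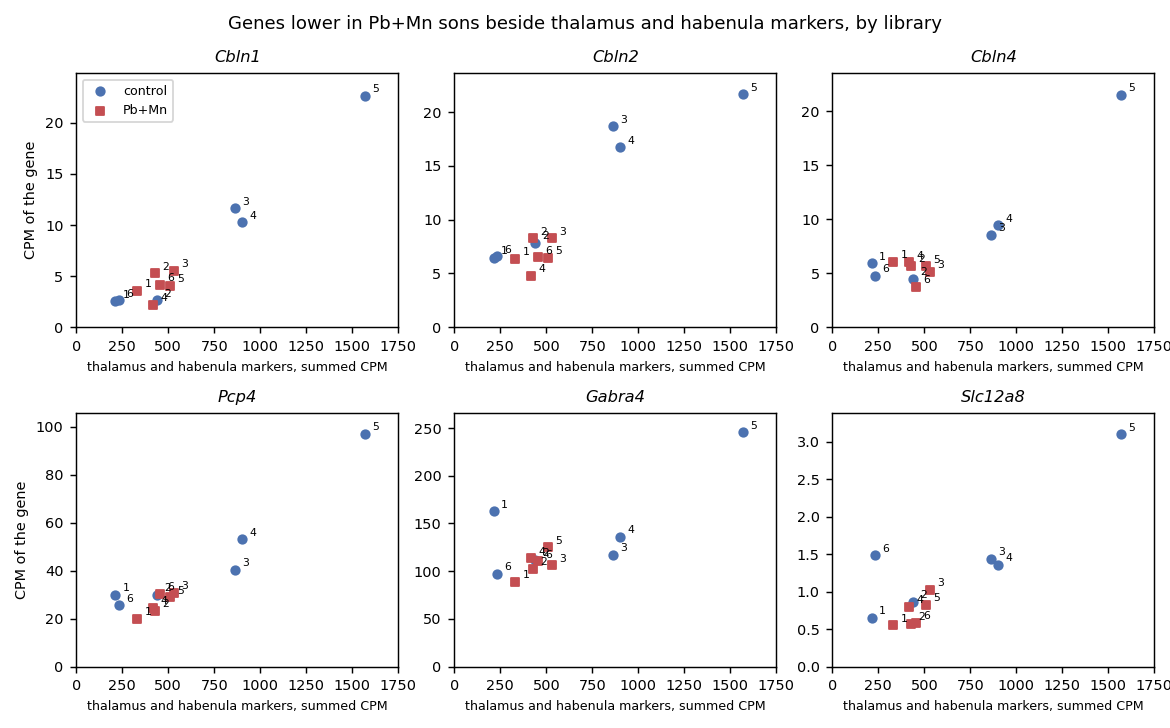
CPM of 6 genes (y axes) against the summed CPM of thalamus and habenula markers (x axis) in each control (circles) and Pb+Mn son (squares), numbered by library. Controls 3, 4 and 5 lie to the right of every Pb+Mn son, and for Cbln1, Cbln2, Cbln4 and Pcp4 they also lie above every other library.

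Control 5 was also the highest library for several other genes. Pcp4, a calmodulin regulator used as a CA2 marker, was at 25.6, 35.2 and 97.1 CPM in controls and at 19.99, 26.7 and 30.8 CPM in Pb+Mn sons, with -0.82 ± 0.34, -0.45 without control 5 and -0.13 without controls 3, 4 and 5. Those controls are the highest libraries for Pcp4, so leaving them out sets the last value. Gabra4, a GABA-A receptor subunit, had -0.43 ± 0.19, or -0.22 without control 5, where it reached 246 CPM. Slc12a8, of the cation-chloride cotransporter family, had -1.07 ± 0.39, or -0.66 without control 5 and -0.40 without controls 3, 4 and 5. Gjc1, a connexin of vessel walls and neurons, had -0.63 ± 0.24, or -0.32 without control 5. Far2, an enzyme of fatty alcohol synthesis, had -0.55 ± 0.18, or -0.22 without controls 3, 4 and 5. With the thalamus and habenula level as a covariate, the values were -0.56 for Pcp4, -0.37 for Gabra4, -0.76 for Slc12a8, -0.44 for Gjc1 and -0.47 for Far2.

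Lists of receptor and channel genes had medians between -0.09 and 0.16. Of the NMDA receptor subunits, 5 of 6 tested were above 0 with a median of 0.07. Grin1, the obligatory subunit, had a 95% interval of -0.30 to 0.41, Grin2a one of -0.35 to 0.63 and Grin2b one of -0.32 to 0.70. AMPA and kainate receptor subunits had 5 of 9 above 0 (median 0.01), with the AMPA subunit Gria4 at -0.28 ± 0.18, or -0.11 without control 5. Metabotropic glutamate receptors had 3 of 7 above 0 and a median of -0.03, which ran from -0.15 to 0.08 when 1 library was left out. Among them Grm4 had -0.40 ± 0.38, or -0.15 without control 5. GABA-A subunits had 5 of 12 above 0 (median -0.09, or 0.01 without control 5), with Gabra4 and Gabrg1 (-0.36 ± 0.16) at an unadjusted p under 0.05. Over all genes, 1.37% were lower at that threshold. Voltage-gated calcium channel subunits had 7 of 8 above 0 and a median of 0.16, which was 0.01 without controls 3, 4 and 5. Cacna1i, a T-type channel, had 0.24 ± 0.13, the P/Q-type Cacna1a 0.16 ± 0.11 and the L-type Cacna1d 0.13 ± 0.13. Protein kinase C and calmodulin genes had 12 of 17 above 0 (median 0.05), and cation-chloride cotransporters 6 of 7 (median 0.10, or 0.03 without Pb+Mn 1).

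Receptors of the social peptides and the neurotrophin Bdnf had intervals spanning 0. Oxtr, the oxytocin receptor, was at 5.58, 6.40 and 7.51 CPM in controls and at 3.33, 8.40 and 10.7 CPM in Pb+Mn sons. The Pb+Mn sons lay on both sides of the control range, 4 above it and 1 below, and the log2 fold change was 0.21 with a 95% interval of -0.27 to 0.68, 0.06 without Pb+Mn 1 and 0.36 without Pb+Mn 5. Avpr1b, the vasopressin receptor of CA2 neurons, was at 0.3003 to 1.33 CPM in controls and 0.475 to 1.16 CPM in Pb+Mn sons, with an interval of -1.02 to 0.83. Bdnf had an interval of -0.46 to 0.44. The oxytocin and vasopressin list had 3 of 5 tested genes above 0 and a median of 0.04.

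The gene of smallest p in the whole comparison was Ssh1, which encodes a phosphatase that activates the actin-severing protein cofilin. It was at 22.5, 27.9 and 31.0 CPM in controls and at 30.1, 36.5 and 41.3 CPM in Pb+Mn sons. Of the Pb+Mn sons 5 were above every control and Pb+Mn 6 was just under the highest, and the log2 fold change was 0.42 ± 0.11 (unadjusted p = 0.00042, edgeR adjusted p = 1). Leaving out any 1 of the 12 libraries gave 0.37 to 0.47, and leaving out controls 3, 4 and 5 gave 0.38. Tesk1, a kinase that opposes this phosphatase by inactivating cofilin, was at 37.6, 43.4 and 52.0 CPM and at 49.8, 51.2 and 70.8 CPM. Its log2 fold change was 0.35 ± 0.11, or 0.26 without Pb+Mn 5, the highest library. Cdc42, a small GTPase that organizes actin, was at 225, 256 and 294 CPM in controls and at 198, 221 and 241 CPM in Pb+Mn sons. For Cdc42, 4 of 6 Pb+Mn sons were below every control, and the log2 fold change was -0.24 ± 0.07. Dstn, the actin-severing relative of cofilin, had -0.20 ± 0.10, or -0.10 without control 1, the highest library at 188 CPM. The cofilin and actin turnover list had 8 of 13 genes above 0 and a median of 0.02, a count without Tesk1 and Tesk2, whose names were misspelt in the list. Cdc42 is not on the list, and it and Tesk1 were named for their small p. With lead alone Ssh1 had 0.20 ± 0.11, with manganese alone 0.04 ± 0.11, and in daughters given Pb+Mn 0.27 ± 0.11.

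**Figure D4:**
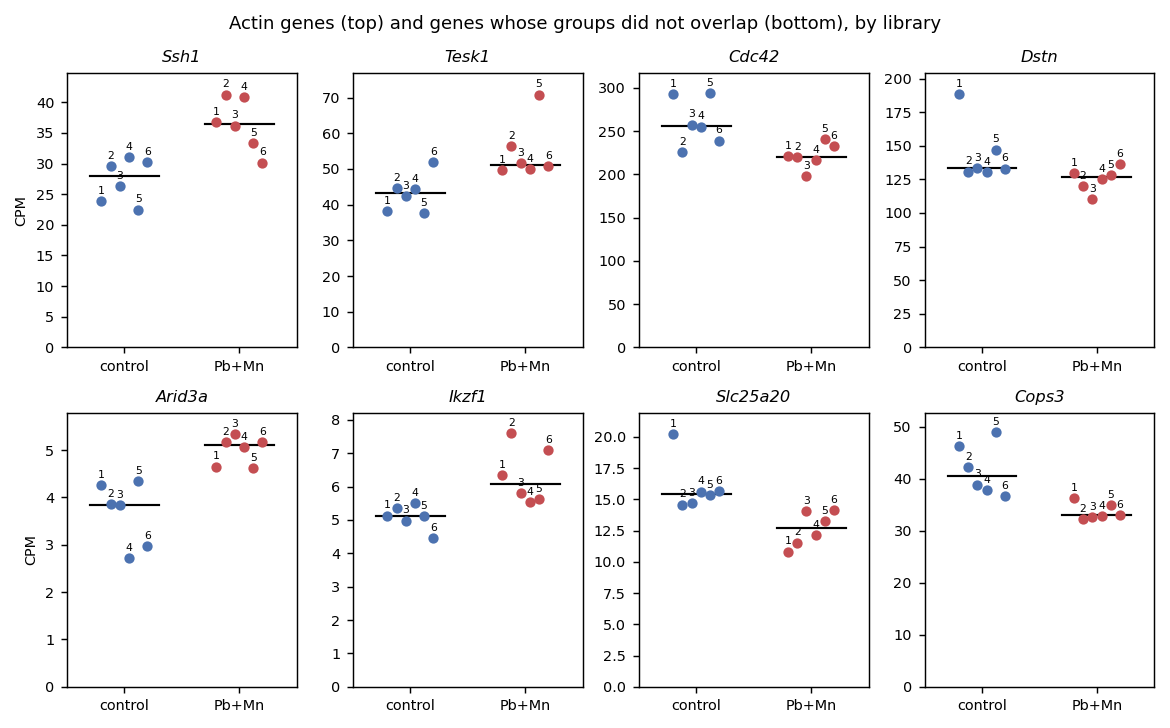
CPM (y axes) of 4 actin genes and of 4 genes whose groups did not overlap, in each control and Pb+Mn son, numbered by library, with a line at each group's median. For Arid3a and Ikzf1 every Pb+Mn son lies above the controls, and for Slc25a20 and Cops3 every Pb+Mn son lies below them.

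Few genes separated the groups completely, and their counts are of the order met when no gene differs. Arid3a, a DNA-binding protein first known from B cells, was at 2.72, 3.85 and 4.34 CPM in controls and at 4.63, 5.12 and 5.33 CPM in Pb+Mn sons (0.43 ± 0.13). Cysrt1 had 0.32 ± 0.14 and Ikzf1, a lymphoid transcription factor, 0.31 ± 0.16. With Hbb-bt these are the genes reported here of those wholly above the controls under the rule for named genes. On the lower side, Slc25a20, the mitochondrial carrier of acylcarnitines, was at 14.6, 15.5 and 20.2 CPM in controls and at 10.8, 12.7 and 14.1 CPM in Pb+Mn sons (-0.34 ± 0.13). Cops3, a subunit of the COP9 signalosome, was at 36.6, 40.5 and 48.9 CPM and at 32.2, 32.9 and 36.2 CPM (-0.32 ± 0.12). The zinc finger gene Zfp58 (-0.34 ± 0.16), the phosphatase subunit gene Ppp2r3c (-0.31 ± 0.15) and Smim17 (-0.30 ± 0.15) were the others named by the rule, which leaves out unnamed gene models. Such models lay lower still, among them A730081D07Rik at -1.24 and BC002163 at -0.75.

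Some of the remaining genes of small p rested on several libraries and others on 1. Gja4, the connexin of arterial endothelium, was at 1.82, 3.33 and 4.45 CPM in controls and at 1.81, 2.14 and 2.56 CPM in Pb+Mn sons (-0.58 ± 0.19), and the connexin and pannexin list had 3 of 12 genes above 0 with a median of -0.06. Cthrc1, a secreted collagen-associated protein, was at 2.81, 5.82 and 9.48 CPM and at 0.719, 1.25 and 4.90 CPM (-1.50 ± 0.51), with 4 of 6 Pb+Mn sons below every control. Rttn, a centriole protein, was at 2.16 to 3.47 CPM in controls and 1.42 to 3.15 CPM in Pb+Mn sons (-0.58 ± 0.19), and Mterf1a, a mitochondrial transcription termination factor, had -0.81 ± 0.27. Alyref2, an RNA export adaptor, had -0.63 ± 0.20, Zfp975 -0.40 ± 0.14 and Ermard -0.53 ± 0.18. On the higher side were the zinc finger genes Zfp112 (0.34 ± 0.11) and Zfp408 (0.29 ± 0.10), the kinase gene Nuak2 (0.70 ± 0.24, or 0.46 without Pb+Mn 1), the axonal spectrin gene Sptbn4 (0.24 ± 0.08) and the transcription factor gene Sox21 (0.44 ± 0.16).

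The remaining genes of small p were uneven between libraries. Glb1l, a beta-galactosidase-like gene, had a log2 fold change of 1.02 ± 0.37 that was 0.39 without Pb+Mn 6, at 20.7 CPM against at most 6.87 CPM in the other Pb+Mn sons. Cwc22, a splicing factor, spread from 10.3 to 111 CPM in controls and from 10.4 to 51.5 CPM in Pb+Mn sons (-1.62 ± 0.54), and only Pb+Mn 4 exceeded 15.9 CPM among the latter, though leaving out any 1 library gave -2.21 to -1.33. Lefty1, a secreted signalling protein listed as a CA1 gene, was at 10.8 CPM in Pb+Mn 6 and at most 0.145 CPM in the other 11 libraries. Xist was among the lower genes of smallest p through control 4 alone.

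Energy and lipid genes had small values, mostly of 1 sign within a list. All 24 tested nuclear genes of the respiratory chain were below 0, with a median of -0.11 and 0 at an unadjusted p under 0.05. Uqcrfs1, the iron-sulfur subunit of complex III, was at 97.6, 115 and 134 CPM in controls and at 97.0, 102 and 108 CPM in Pb+Mn sons (-0.18 ± 0.09). The 13 mitochondrially encoded genes were all above 0 with a median of 0.09 (mt-Nd3, a complex I subunit at under 1 CPM, 0.84 ± 0.54). The respiratory chain median was -0.03 with the transcript length slope as a covariate and -0.05 without control 1. Cytosolic ribosomal protein genes had 24 of 30 above 0 (median 0.03, Rps23 at 0.20 ± 0.23). Of the cholesterol synthesis genes, 1 of 14 was above 0 and the median was -0.12, or -0.06 without control 1. Idi1, which isomerizes isopentenyl diphosphate, was at 7.92, 13.0 and 20.4 CPM in controls and at 6.00, 8.87 and 10.3 CPM in Pb+Mn sons, and 3 of 6 Pb+Mn sons were below every control (-0.60 ± 0.25).

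Lists of cell types within the hippocampus had medians between -0.19 and 0.24. CA1 markers had 8 of 10 genes above 0 and a median of 0.24, with Fibcd1 at 72.2, 113 and 124 CPM in controls and 86.3, 141 and 216 CPM in Pb+Mn sons (0.51 ± 0.27) and Pou3f1 at 0.38 ± 0.25. The CA1 median was 0.10 without control 5 and -0.04 without controls 3, 4 and 5. CA2 markers had 2 of 10 above 0 (median -0.10, or -0.24 without control 2), CA3 markers 2 of 10 (median -0.08, Lhfpl1 at -0.67 ± 0.33), dentate granule cell markers 10 of 12 (median 0.05, Tdo2 at -0.35 ± 0.24) and interneuron markers 9 of 15 (median 0.06, Calb2 at -0.80 ± 0.51). Calb2 is also on the thalamus and habenula list and the adult neurogenesis list. It was at -0.22 with the thalamus and habenula level as a covariate and at 0.70 without controls 3, 4 and 5. Calb2 is among the genes averaged into that level, and those controls have the highest sums of the list. Both values therefore follow in part from the choice. Adult neurogenesis markers had 4 of 9 above 0 and a median of -0.19, or -0.02 without Pb+Mn 2, with the newborn neuron gene Igfbpl1 at -0.48 ± 0.39 (-0.14 without control 1) and the proliferation gene Mki67 at 0.31 ± 0.27. Medians of astrocyte (3 of 10 above 0, S100b at -0.24 ± 0.24), oligodendrocyte (5 of 10, Mog at -0.18 ± 0.16), oligodendrocyte precursor (4 of 8, Neu4 at -0.12 ± 0.13) and microglial markers (6 of 10, C1qc at 0.21 ± 0.19) lay between -0.03 and 0.03. Without control 4, Mog was at -0.04 and S100b at -0.11. Endothelial Slco1a4, an organic anion carrier, had -0.14 ± 0.14.

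Lists of tissue around the hippocampus had medians between -0.16 and 0.47, thalamus and habenula aside. Choroid plexus markers had 18 of 18 genes above 0 and a median of 0.47, but 0 at an unadjusted p under 0.05: Ttr, the thyroxine carrier that defines this tissue, ranged from 20.1 to 4079 CPM in controls and from 36.8 to 3605 CPM in Pb+Mn sons. Kl had 0.79 ± 0.60, Prlr 0.72 ± 0.76 and the ciliary gene Foxj1 0.44 ± 0.32, and the list's median was 0.14 without Pb+Mn 4, 1.61 without control 3 and 3.27 without controls 3, 4 and 5. Controls 3 and 4 had the highest sums of this list among the controls, at 7763 and 3699 CPM, so leaving them out raises the median. Arterial wall and mural cell markers had 3 of 11 above 0 (median -0.16, or -0.02 without control 4), with the smooth muscle gene Cnn1 at -0.43 ± 0.35 and the pericyte channel gene Kcnj8 at -0.22 ± 0.20. Meningeal markers had 9 of 14 above 0 (median 0.02, Slc13a4 at 0.44 ± 0.46), subicular and cortical markers 6 of 10 (median 0.05, Fezf2 at 0.22 ± 0.17) and ependymal markers 2 of 7 (median -0.06, Tekt4 at -0.44 ± 0.32).

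Whether the combined exposure differed from its parts, or between sexes, was tested gene by gene. The difference between Pb+Mn sons and Pb+Mn daughters, each against its own controls, passed for 0 genes (0%, 93 at an unadjusted p under 0.05). Among the named genes, Rttn had -0.83 ± 0.27 in this test, Idi1 -0.85 ± 0.36 and Zfp112 0.37 ± 0.16, all with an edgeR adjusted p of 1. The departure of Pb+Mn from the sum of lead alone and manganese alone in sons passed for 0 genes (0%), with 2136 at an unadjusted p under 0.05 and a smallest adjusted p of 0.369. That count of 2136 of 16360 genes lies above the share that a threshold of 0.05 gives on average when no gene differs. The 367 of the main comparison and the 93 of the test between sexes lie under it, and the reason was not tested. Slc39a14 had a departure of 0.47 ± 0.16, from values of -0.38 ± 0.11 with lead, -0.17 ± 0.11 with manganese and -0.08 ± 0.11 with both. Dnajb9 had -0.42 ± 0.11, from 0.19 ± 0.08, 0.10 ± 0.08 and -0.12 ± 0.08, and Cops3 had -0.45 ± 0.16, from 0.15 ± 0.12, -0.02 ± 0.12 and -0.32 ± 0.12. No rule set beforehand chose these 3 genes for this test. In them the value with both metals lay nearer to 0 than, or on the other side of 0 from, the value with lead. A departure opposite in sign to the lead value tends to give this pattern. The exposures share control sons, so their values are given side by side and no overlap between them was counted.

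**Figure D5:**
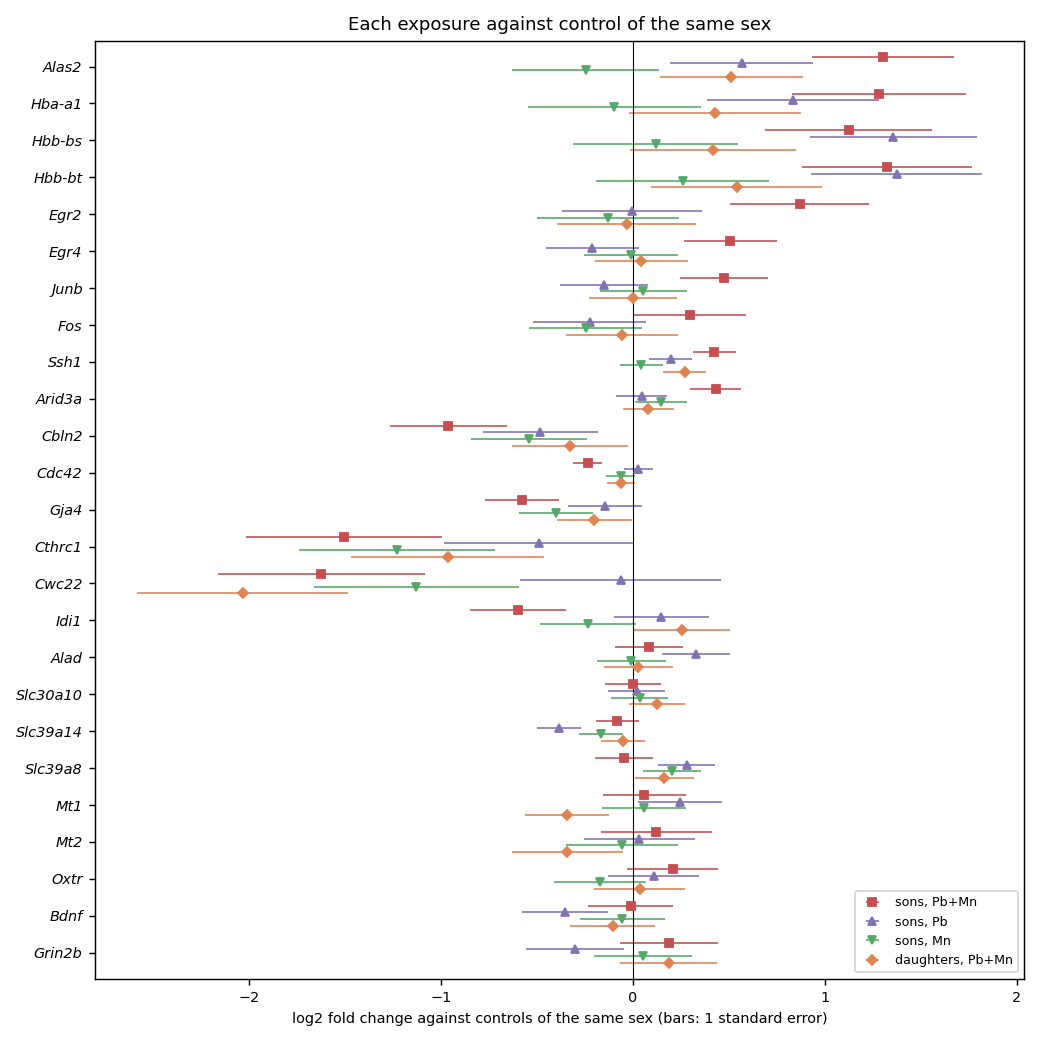
Log2 fold change (x axis, bars 1 SE) of 25 genes for Pb+Mn, lead alone and manganese alone in sons and for Pb+Mn in daughters, each against controls of the same sex (6 animals a group). Hbb-bs and Hbb-bt lie at 1.12 and 1.32 with Pb+Mn and at 1.36 and 1.37 with lead alone, and the 4 exposures' intervals overlap around 0 for Slc30a10.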

How the data were processed

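Hippocampal RNA was sequenced from stranded mRNA libraries as pairs of 100-base reads, per the labels' protocols. The deposited values are whole-number counts per gene in 1 table of 57126 gene identifiers, as the authors left them, with no normalization. The submitters' processing notes list STAR 2.7.10b and build GRCm39, Trim Galore 0.6.9, featureCounts 2.0.6, limma, edgeR and R 4.4.2. The sources used here do not state how strand, shared reads and overlapping genes were handled. Near-identical genes are therefore uncertain.

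Genes were named by matching identifiers to reference names (51884 matched, with 99.52% of counts). The main test was edgeR 4.0.16 in R 4.3.3 (quasi-likelihood F test, two-sided), with TMM factors and filterByExpr. A single model held the 48 libraries and a coefficient for each group, and p-values over 16360 genes were adjusted by the Benjamini-Hochberg method at 0.05. An SE is the size of the fold change over the square root of F, and 95% intervals use the fit's degrees of freedom. CPM were computed on totals scaled by TMM (prior count 2 on the log2 scale). The fit was tested on simulated counts. Total counts and the transcript length slope (11765 genes, 16091 of the tested genes having a length) were compared by exact permutation over 924 arrangements. Every pair of libraries in a group had a chi-square per degree of freedom of 8.9 or more, so none was taken as a repeat.

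The members, the 42 gene lists and the rules were chosen with earlier results of these data known. The rule named the 12 genes of smallest p in each direction with mean log2 CPM of at least 0, the 5 largest without overlap in each direction (unnamed gene models and pseudogenes left out of both), the 1 or 3 members of smallest p of each list (3 where its median lay beyond 0.15) and 13 fixed genes. Other list members at an unadjusted p under 0.05 (Cbln1, Cbln4, Dstn, Gabrg1, Gjc1, Hbb-bs), the defining tissue markers, Ddx3y, S100a8, S100a9 and Hba-a2 were named after their values were seen. A gene named by the rule is not reported here. Lists received counts and medians and no test. Alternatives changed the scaling, filter, libraries in the fit, tool (DESeq2 1.42.0, limma 3.58.1) and threshold, added a replicate block or the length slope, and left out each library in turn. Leaving out controls 3, 4 and 5 together and a thalamus and habenula covariate were chosen after seeing the data.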

Additional observations from a re-analysis of the deposited data

Results flagged for a closer look

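In 200 sets of 6 libraries (a named gene or a library measure in 1 group), 21 times a highest or lowest library stood apart by Dixon's test at the 95% level, where chance alone gives about 1 in 20 sets. In Pb+Mn 1, Alas2 was high at 17.8 CPM and Grm4 low at 12.05 CPM. Pb+Mn 6 was high in Glb1l at 20.7 CPM and in Lefty1 at 10.8 CPM. Other high Pb+Mn libraries were Pb+Mn 5 in Tesk1 at 70.8 CPM, Pb+Mn 4 in Cwc22 at 51.5 CPM and in Bdnf at 56.0 CPM, and Pb+Mn 3 in Gbx2 at 1.09 CPM. Control 5 was high in Prkcd at 357 CPM, in Slc12a8 at 3.10 CPM and in Cbln4 at 21.5 CPM, and low in Cpox at 36.4 CPM. Control 4 was high in Xist at 24.4 CPM, in S100b at 243 CPM and in Mog at 112 CPM. Control 1 was high in Slc25a20 at 20.2 CPM, in Lefty1 at 0.145 CPM, in Igfbpl1 at 8.82 CPM and in Dstn at 188 CPM, and low in Cysrt1 at 6.94 CPM. Control 3 was high in Prlr at 36.7 CPM.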

How the results depend on the processing

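Under every alternative run, 0 genes passed for Pb+Mn against control sons (smallest adjusted p 0.156, with DESeq2). The interaction tests are given for 15 of these alternatives, and 0 genes passed for both tests in each. The unadjusted count, 367, was 1291 without the filter on low counts, 730 with the 12 libraries alone, 691 with limma voom and library weights, and 656 without controls 3, 4 and 5. It ran from 194 to 567 when 1 library was left out. Replicate numbers did not pair the samples (6 correlations of deviations, -0.313 to 0.0942), and 0 of 6 libraries correlated best with their own number. With the replicate block there were 426 genes at an unadjusted p and 0 past the threshold.

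Of the 98 named genes, 22 crossed 0 under some alternative. Without controls 3, 4 and 5 the values were Cbln1 0.66, Cbln4 0.077, Grin2b -0.066, Gria4 0.018, Grm4 0.74, Cacna1a -0.013, Prkcd 0.59, Calb2 0.70, Mog 0.036, Slco1a4 0.17, Gbx2 2.78, Slc17a6 0.94, Slc39a8 0.025, Grin1 -0.064 and Grin2a -0.14. Those controls hold the most thalamus and habenula RNA, so the values of that list's genes and of Cbln1 and Cbln4 follow from the choice. With the thalamus covariate, Grm4 was 0.061 and Gbx2, itself among the genes averaged into that covariate, 0.77. With the length slope, Slc30a10 was -0.014 and Grin1 -0.0045. Slc30a10 was -0.0018 with RLE factors, -0.011 with the 12 libraries alone and -0.0051 with the replicate block. Avpr1b was 0.14 with limma voom and 0.15 with library weights, Bdnf 0.047 and 0.11 (0.024 with the block), and Grin1 -0.0044 with library weights. Leaving out 1 library gave -7.13 to 0.50 for Xist, -0.63 to 7.81 for Lefty1, -0.079 to 0.073 for Slc30a10, -0.15 to 0.051 for Slc39a8, -0.075 to 0.16 for Mt1, -0.061 to 0.27 for Mt2, -0.31 to 0.16 for Avpr1b, -0.13 to 0.22 for Bdnf and -0.057 to 0.13 for Grin1. The cause was not tested. List medians that crossed 0 without controls 3, 4 and 5 included thalamus and habenula (0.79), CA1 neurons (-0.04), AMPA and kainate subunits (-0.11), interneurons (-0.04), microglia (-0.15), adult neurogenesis (0.02) and ependyma (0.51).

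Control 6, with 6.27 M (mega) counts, is the shallowest library, and genes under about 1 CPM rest on few counts in it. Group sizes of 6 animals of an outbred stock and unknown litters limit all comparisons.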

Other observations

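Of the 29 genes whose groups did not overlap, several lie outside the rule for named genes and were chosen after their values were seen. All had an edgeR adjusted p near 1. Eif4e, the cap-binding protein that starts translation, was at 75.5, 81.3 and 101 CPM (lowest, median and highest) in controls and at 68.9, 73.5 and 75.4 CPM in Pb+Mn sons, a log2 fold change of -0.20 ± 0.08 (SE). Among genes for RNA and protein handling, the ribosome assembly factor Brix1 was at 18.3 to 21.5 CPM in controls and 16.2 to 18.3 CPM in Pb+Mn sons, with -0.21 ± 0.09. The mitochondrial RNA-binding protein Grsf1 was at 80.4 to 92.4 CPM and 68.0 to 77.9 CPM, with -0.17 ± 0.06, and the mitochondrial ribosomal protein gene Mrpl36 had -0.23 ± 0.14. Rnf14, a ubiquitin ligase and the most abundant of these genes, was at 280 to 336 CPM in controls and 254 to 272 CPM in Pb+Mn sons, with -0.17 ± 0.06. The deubiquitinase gene Usp28 had -0.27 ± 0.10 and the centromere gene Cenpu, at under 1 CPM, -0.63 ± 0.25. On the higher side, Stk35, a kinase gene, was at 25.1 to 28.2 CPM in controls and 28.7 to 32.0 CPM in Pb+Mn sons, with 0.18 ± 0.07, and Otud7a, a deubiquitinase gene, was at 48.7 to 51.6 CPM and 54.4 to 63.2 CPM, with 0.19 ± 0.09. Low-count genes and unnamed models had larger values, such as 1.46 for Fcnaos and -1.32 for Gm47210, both at under 1 CPM.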
